A study of Saccharomyces cerevisiae with 7 samples.

Results

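The proteasome module comprised 36 genes of budding yeast (Saccharomyces cerevisiae), taken by their systematic names from a table of 5666 genes with values. It held the 14 genes of the core particle (PRE1 to PRE10, PUP1 to PUP3 and SCL1), the RPT and RPN genes of the regulatory particle, and the accessory genes RPN4, BLM10, UMP1 and UBP6. All 36 had a value at each time point, and all 36 systematic names carried the expected standard name in the RefSeq table of the R64 assembly. The members were chosen by name and not by a cut on their values, but with earlier results of these data known.

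Messenger RNA was measured in cultures going through meiosis at 1, 2, 3, 4, 5, 6 and 8 h, on 2-colour arrays against a common mix of meiotic messenger RNA. Each value is the log2 ratio of a time point to 0 h, so 0 is the 0 h level and 1 is a 2-fold higher level. The series design names 3 independent cultures, but the deposited table has a single column per time point, so a replicate error cannot be given for any value. The strain, its alleles and the medium are not stated in the sources used, and the time points differ only in hour as far as the labels say. Markers of meiosis were present: IME2, the meiotic kinase, stood at 4.38 at 1 h, HOP1, of the chromosome axis, at 5.48 at 4 h, and NDT80, the activator of the middle genes, at 1.62 at 3 h, 4.32 at 4 h and 6.90 at 5 h. Over all genes the median lay between -0.04 and 0.01 at every time point, while the spread of the genes widened, with an SD of 0.894 at 1 h, 1.05 at 4 h and 1.51 at 8 h. In a whole culture, a larger share of cells at a stage and more RNA per cell cannot be told apart.

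The proteasome degrades proteins marked with ubiquitin. Its core particle is a barrel of stacked alpha and beta rings, with the protein-cutting threonines inside on the beta subunits Pre3, Pup1 and Pre2. The regulatory particle that caps the barrel has a base, with a ring of Rpt ATPases that unfolds substrates, and a lid, which removes ubiquitin through Rpn11. In yeast the transcription factor Rpn4 activates most of these genes and is itself rapidly destroyed by the proteasome. In meiosis the proteasome acts downstream of the anaphase-promoting complex, which marks cyclins and securin for destruction.

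The module was raised modestly and almost in unison, with a peak at 4 h. The median of the 32 subunit genes (core, RPT and RPN genes other than RPN4) was 0.48, 0.57, 0.70, 1.15, 0.90, 0.80 and 0.30 from 1 h to 8 h, against medians of all genes that stayed within 0.05 of 0. At 4 h this is a level 2.23-fold above 0 h, and at 8 h 1.23-fold. Of the 36 members 31 were highest at 4 h, where 14.6% of all genes had their highest value. The exceptions were RPN2, RPN8 and RPN9, highest at 5 h, RPN11, highest at 8 h, and BLM10, highest at 1 h. The lowest value fell at 8 h in 24 members, against 26.5% of all genes. All 7 values were above the 0 h level in 22 members, against 24.5% of all genes.

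**Figure D1:**
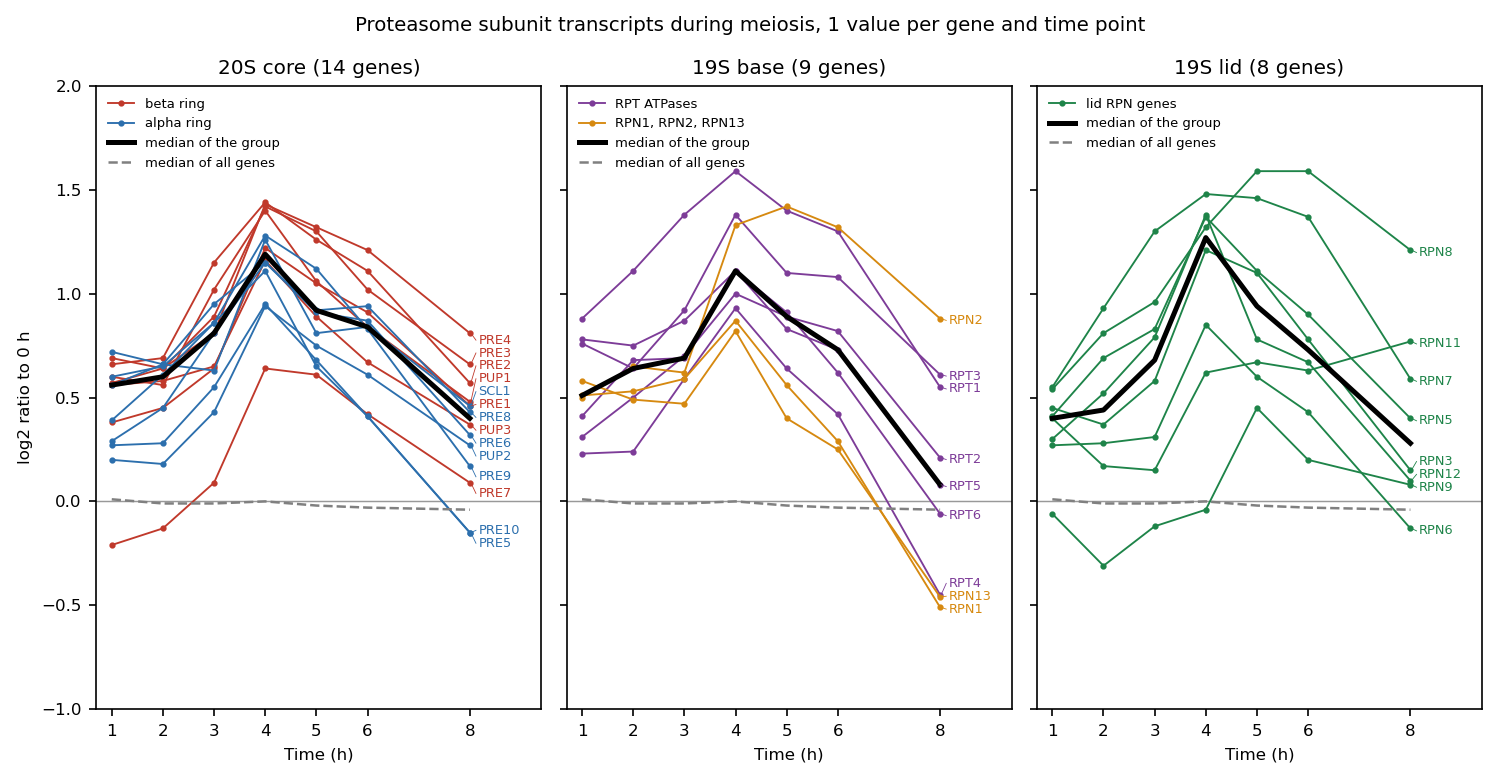
Log2 ratio to 0 h (vertical axis) against time in hours for the genes of the core, the base and the lid, 1 line per gene, with the group median in black and the median of all genes dashed. The 3 group medians peak at 4 h, at 1.19 for the core, 1.11 for the base and 1.27 for the lid, and the genes of the base and lid lie farther apart at 8 h than those of the core.

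A fixed rule of size was used to call genes. A gene was called induced at a log2 ratio of 1 or more at 2 or more consecutive time points, and repressed at -1 or less. By this rule 13 of the 36 members were induced, against 21.8% of all genes, and 0 were repressed, against 16.4% of all genes. The induced members were PRE1, PRE2, PRE3, PRE4, PRE9 and PUP1 of the core, RPT1, RPT3 and RPN2 of the base, and RPN3, RPN5, RPN7 and RPN8 of the lid. Just inside the limit were PRE1, which held a level of 1.05, and PUP1, at 1.06, and just outside was PRE6, at 0.95. At 4 h alone, 24 members stood at 1 or more, against 12.1% of all genes. With 1 h in place of 0 h as the baseline, 1 member met the rule, RPN8, so most of the induced calls include the difference between 0 h and 1 h.

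A trend test with limma asked whether a gene followed a parabola over the 7 hours rather than a constant level, with p-values adjusted by Benjamini-Hochberg across the 5666 genes and a threshold of 0.05. It called 22 of the 36 members, against 48.5% of all genes. The fitted value was higher at 8 h than at 1 h in 9 of the called members, against 23.3% of all genes, and lower in 13, against 25.2%. Among the called members this difference ran between -0.93 in RPN1 and RPN13 and 0.83 in RPN8. It was near 0 in PRE2 (0.02), RPN5 (0.02) and RPT2 (-0.01), so its sign there says little. All 22 had a curve with a negative quadratic term, and 25.0% of all genes were called with such a term. The term alone does not place the high of a gene in the middle of the course. Called were 9 genes of the core, 8 of the base, 4 of the lid and RPN4. Its p-values set a gene's curve against the scatter of the hours around it. They say nothing of the spread between cultures, and they are too small if the hours share errors. The count rests on the later columns. It was 8 with the 8 h column left out, against 46.6% of all genes in that fit, and 9 with the 6 h column left out, against 24.8%, so the module was called less often than all genes without 8 h and about as often without 6 h.

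The step between 3 h and 4 h was shared by the whole module. All 36 members were higher at 4 h than at 3 h, against 50.5% of all genes. The differences ran between 0.08, in RPN9, and 0.71, in RPN2, and their median was 0.41, with a median of 0.01 over all genes. Between 4 h and 5 h the median difference was -0.23, and 31 members were lower at 5 h, against 57.7% of all genes. Between 6 h and 8 h, an interval of more than an hour, the median difference was -0.55, with 35 members lower at 8 h, against 51.1% of all genes. RPN11 was the exception, 0.14 higher at 8 h. These differences do not contain the 0 h value, which cancels between time points, but an error in the 4 h column would enter both the step before and the step after it.

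**Figure D2:**
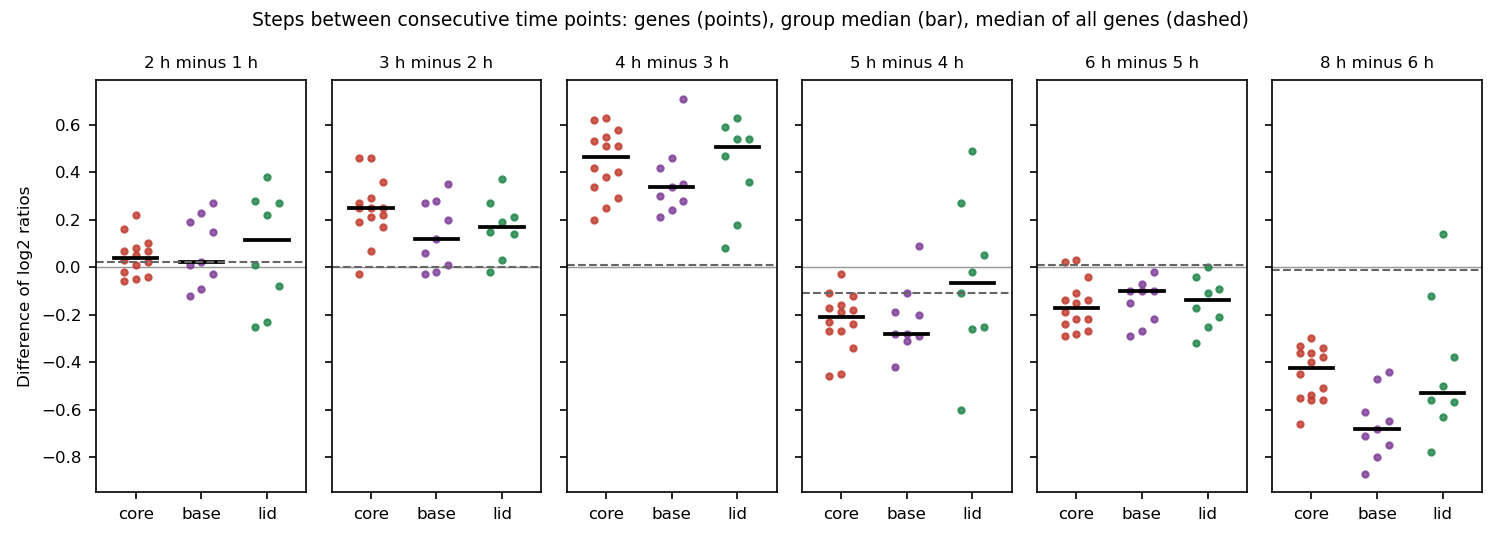
Difference of log2 ratios between consecutive time points (vertical axis) for each gene of the core, the base and the lid (points), with the group median (bar) and the median of all genes (dashed line). From 3 h to 4 h every point lies above 0, and from 6 h to 8 h the base has the lowest median, -0.68, followed by the lid with -0.53 and the core with -0.42.

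The medians of core, base and lid all peaked at 4 h. The core median was 0.56, 0.60, 0.81, 1.19, 0.92, 0.84 and 0.40 from 1 h to 8 h, the base median 0.51, 0.64, 0.69, 1.11, 0.89, 0.73 and 0.08, and the lid median 0.40, 0.44, 0.68, 1.27, 0.94, 0.73 and 0.28. At 4 h the core median was 0.08 above the base and 0.08 below the lid, less than the SD of 0.23 among core genes, 0.26 among base genes and 0.52 among lid genes. With means in place of medians the core was 0.16 above the lid at 4 h, so the order of these 2 groups depends on the summary. The largest difference between the 3 groups was at 8 h, where the core median stood 0.32 above the base, with SDs of 0.28 among core and 0.51 among base genes. All 14 core genes and 8 of 9 base genes were highest at 4 h, and 5 of 8 lid genes. Genes of a group are not replicates, so these differences carry no test.

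The 3 groups differed in how far their genes spread. At 1 h the SD among genes was 0.25 in the core, 0.22 in the base and 0.20 in the lid. At 8 h it was 0.28 in the core, 0.51 in the base and 0.44 in the lid. The core stayed about as tight as it started, while the base ran between -0.51 (RPN1) and 0.88 (RPN2) at 8 h, and the lid between -0.13 (RPN6) and 1.21 (RPN8). Over all genes the SD was also larger at 8 h, as given above.

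Within the core, the genes of the catalytic subunits were close to each other at 4 h. PRE2 (YPR103W), which encodes the chymotrypsin-like subunit, stood at 0.66, 0.69, 1.15, 1.44, 1.26, 1.11 and 0.57 from 1 h to 8 h. PUP1 (YOR157C), for the trypsin-like subunit, stood at 0.60, 0.56, 1.02, 1.40, 1.06, 0.84 and 0.48. PRE3 (YJL001W), for the caspase-like subunit, stood at 0.57, 0.64, 0.89, 1.42, 1.30, 1.02 and 0.66. At 4 h these 3 genes lay between 2.64-fold and 2.71-fold above 0 h. PRE2 (adjusted p = 0.0245) and PRE3 (adjusted p = 0.0442) changed by the limma trend test and PUP1 did not pass (adjusted p = 0.0663). The call of PRE3 was marginal. With any 1 time point left out it did not pass (limma adjusted p between 0.058 and 0.101), so PRE3 and PUP1 are hardly told apart by this test.

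The beta subunits without a cutting site were less alike. PRE4 stood with the catalytic genes (1.43 at 4 h), and PRE1 and PUP3 somewhat lower (1.22 and 1.16). PRE7 (YBL041W) was the lowest gene of the core up to 5 h, at -0.21, -0.13, 0.09, 0.64 and 0.61 from 1 h to 5 h, then 0.42 at 6 h and 0.09 at 8 h. Its difference between 4 h and 1 h, 0.85, equalled that of PRE3 (0.85) and was close to that of PRE1 (0.84). PRE7 thus stood apart from these genes in its level relative to 0 h and not in its rise between 1 h and 4 h. Its fall was smaller, with a difference between 8 h and 4 h of -0.55, against -0.76 in PRE1 and in PRE3.

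The 7 genes of the alpha ring, whose products form the gate of the barrel, had values at 4 h between 0.94 (PUP2) and 1.28 (PRE9), with an SD of 0.13 among genes. The 7 beta genes ran between 0.64 and 1.44 with an SD of 0.29, which rests on PRE7. The other 6 beta genes ran between 1.16 and 1.44 with an SD of 0.12. The beta median was 0.25 above the alpha median at 4 h (1.40 against 1.15) and 0.25 above it at 5 h (1.06 against 0.81), and the ranges of the rings overlapped. PRE9 (YGR135W), the gene of the only alpha subunit that yeast can live without, changed by the limma test (adjusted p = 0.0132), with 1.28 at 4 h and 0.17 at 8 h. PRE5 and PRE10, also called (adjusted p = 0.0299 and 0.0179), were the core genes that ended below 0 h, both at -0.15 at 8 h. SCL1 was the highest core gene at 1 h (0.72), with 1.26 at 4 h, and did not pass the test (adjusted p = 0.291).

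In the base, the 6 genes of the ATPase ring had their highest value at 4 h and their lowest at 8 h. RPT1 (YKL145W) was the highest of them over the first 6 h, at 0.88, 1.11, 1.38, 1.59, 1.40 and 1.30, with 0.55 at 8 h (limma adjusted p = 0.00913). RPT4 (YOR259C) was at the other end, at 0.23, 0.24, 0.59, 0.93, 0.64, 0.42 and -0.45 (adjusted p = 0.0133), and had the deepest difference between 6 h and 8 h of all members, -0.87. RPT2, RPT5 and RPT6 peaked at 1.00, 1.11 and 1.11 and were also called by the test. RPT3 reached 1.38 and was not (adjusted p = 0.104).

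RPN1 and RPN2, which encode the large scaffold proteins of the base, parted after 3 h. RPN1 (YHR027C), whose product docks ubiquitin carriers, stood at 0.51, 0.53, 0.59, 0.87, 0.56, 0.29 and -0.51 from 1 h to 8 h (adjusted p = 0.00889, limma). RPN2 (YIL075C) stood at 0.50, 0.65, 0.62, 1.33, 1.42, 1.32 and 0.88 (adjusted p = 0.0493). The pair differed little up to 3 h and more at each later time point. RPN13 (YLR421C), a ubiquitin receptor bound to Rpn2, did not follow RPN2. It stood at 0.58, 0.49, 0.47, 0.82, 0.40, 0.25 and -0.46 (adjusted p = 0.0168), close to RPN1 at every hour.

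RPN10 (YHR200W), the ubiquitin receptor placed between base and lid, was also highest at 4 h, but at a lower level and after a fall between 1 h and 3 h. It stood at 0.39, 0.22, 0.15, 0.66, 0.08, -0.05 and -0.45 from 1 h to 8 h (adjusted p = 0.0719 by limma). The receptor genes RPN10 and RPN13 were thus among the 11 of 36 members below the 0 h level at 8 h, where 51.5% of all genes were below it.

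The lid was the most varied of the 3 groups at 4 h, with RPN9 far below the rest at -0.04. The other lid genes ran between 0.62 (RPN11) and 1.48 (RPN7), about as far apart as the core genes (0.64 to 1.44). RPN7 (YPR108W), for a PCI domain subunit, stood at 0.55, 0.93, 1.30, 1.48, 1.46, 1.37 and 0.59 from 1 h to 8 h. It had the lowest trend p of the module (adjusted p = 0.00568, limma) and a scatter around the curve of 0.04. RPN3, RPN5, RPN6 and RPN12 kept the common shape, with peaks of 1.21, 1.37, 0.85 and 1.38 at 4 h. Of these 4, RPN5 (adjusted p = 0.0243) and RPN12 (adjusted p = 0.0399) were called.

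RPN8 and RPN11, whose products form a dimer that holds the deubiquitinating site, both stayed up late but at different heights. RPN8 (YOR261C) stood at 0.54, 0.81, 0.96, 1.32, 1.59, 1.59 and 1.21 from 1 h to 8 h (adjusted p = 0.0124, limma), the only member at 1 or more at 8 h. RPN11 (YFR004W), the enzyme of the pair, stood at 0.40, 0.17, 0.15, 0.62, 0.67, 0.63 and 0.77 (adjusted p = 0.148). RPN9 (YDR427W), another lid subunit, was the flattest subunit gene before 5 h, at -0.06, -0.31, -0.12 and -0.04 from 1 h to 4 h, then 0.45, 0.20 and 0.08 (adjusted p = 0.31). RPN9 had the lowest peak of the subunit genes.

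RPN4 (YDL020C), the gene of the activator, had the shape of its target genes but not their level. It stood at -0.22, -0.23, -0.09, 0.23, -0.12, -0.25 and -0.86 from 1 h to 8 h (adjusted p = 0.0247, limma). Only the 4 h value was above 0 h, and the 8 h value was the lowest of any member. The step of RPN4 between 3 h and 4 h was 0.32, and its 8 h value was 1.09 below its 4 h value, a difference of -1.09. The subunit genes had median differences of 0.42 and -0.88 in the same intervals, and 33 of the 36 members were lower at 8 h than at 4 h, against 53.3% of all genes. Transcript levels do not give the level of the Rpn4 protein, which is set largely by its destruction.

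**Figure D3:**
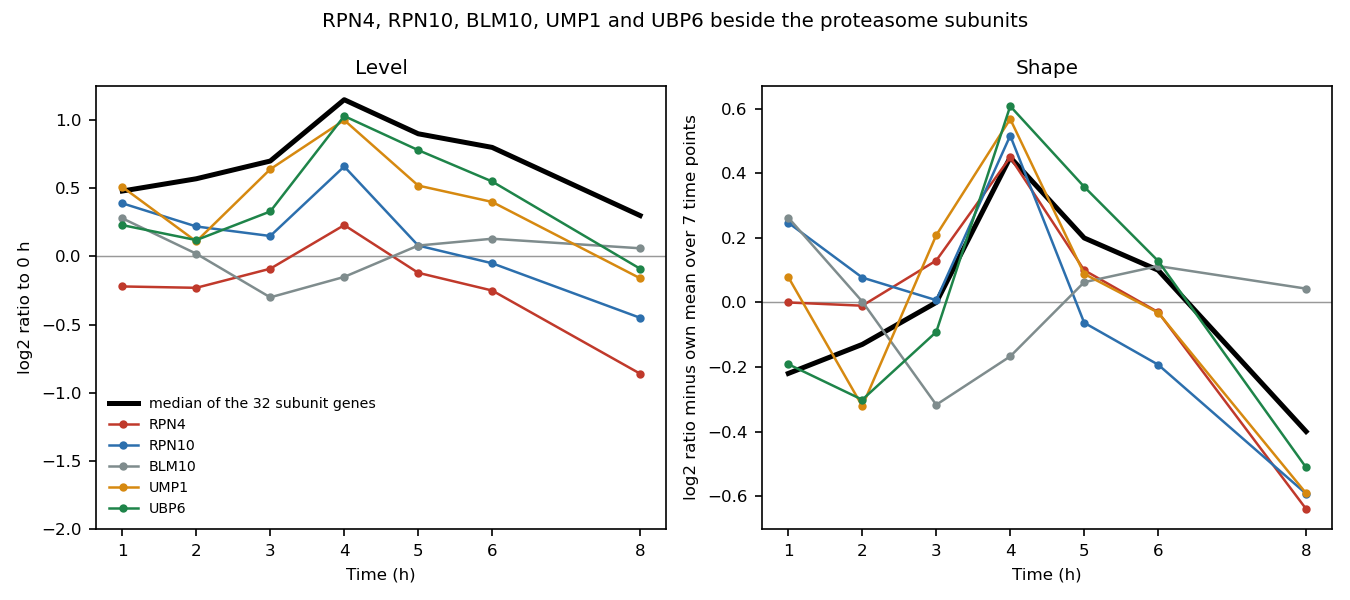
Log2 ratio to 0 h (left) and the same values minus each gene's mean over the 7 time points (right) against time in hours, for RPN4, RPN10, BLM10, UMP1 and UBP6, with the median of the 32 subunit genes in black. RPN4 lies below the subunit median at every hour on the left and peaks with them at 4 h on the right (0.45, against 0.46 for the subunit median), while BLM10 has its low at 3 h.

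The likeness of each gene to the subunits was measured as the root mean square difference over the 7 hours between its log2 ratios and the subunit median, with a subunit left out of its own median. The median distance of the subunit genes was 0.271, against 0.981 for genes outside the module, and 2.22% of those genes lay within 0.271. PUP3 (0.0828), RPT2 (0.108) and PRE6 (0.12) were the closest subunits and RPN9 (0.744) the most distant. RPN4 lay at 0.931. With each gene's own mean taken off, which removes the 0 h value, RPN4 lay at 0.155, near the median of 0.13 for the subunits and below the median of 0.429 for other genes. By this measure of shape, 0.746% of genes outside the module lay within the subunits' median.

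Of the accessory genes, UMP1 and UBP6 kept the shape and BLM10 did not. UMP1 (YBR173C), which encodes a chaperone that matures the core and is then degraded in it, stood at 0.51, 0.11, 0.64, 1.00, 0.52, 0.40 and -0.16 from 1 h to 8 h (adjusted p = 0.117, limma). UBP6 (YFR010W), for the deubiquitinase bound to Rpn1, stood at 0.23, 0.12, 0.33, 1.03, 0.78, 0.55 and -0.09 (adjusted p = 0.0752). BLM10 (YFL007W), for the activator that caps the core in place of the regulatory particle, stood at 0.28, 0.02, -0.30, -0.15, 0.08, 0.13 and 0.06 (adjusted p = 0.507). BLM10 was the only member whose highest value was at 1 h.

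Members lay on 13 of the 16 nuclear chromosomes in the RefSeq table, and in 2 pairs of members a single gene lay between them. RPT4 and RPN8, on either side of GCD1, had the lowest member of the ATPase ring and the highest of the lid at 8 h, at -0.45 and 1.21. PRE4 and RPN12, on either side of RET2, were close at 4 h, with values of 1.43 and 1.38, and apart at 8 h, with 0.81 and 0.10.

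Among all genes outside the module, the 5 closest to the subunit median were UFD1 (root mean square difference 0.0578), RMA1 (0.124), MND2 (0.135), YBP2 (0.136) and YPQ2 (0.142). UFD1, a partner of the Cdc48 segregase that hands ubiquitylated proteins to the proteasome, was closer to the median than any subunit gene. It stood at 0.47, 0.50, 0.68, 1.25, 0.93, 0.71 and 0.28 from 1 h to 8 h (adjusted p = 0.0682, limma).

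Of the other 11 genes in the list of Cdc48 and the ubiquitin shuttles, 7 were highest at 4 h, against 14.6% of all genes. By the rule of size 2 were induced (RAD23 and UBX4) and 0 repressed, against 21.8% and 16.4% of all genes, and the trend test called 7, against 48.5%. Without UFD1 the list had a median of 0.23 at 3 h, then 0.53 at 4 h, and ended with -0.27 at 8 h. RAD23, a shuttle that carries ubiquitylated proteins to the proteasome, changed (adjusted p = 0.0142, limma), at 0.16, 0.51, 0.75, 1.24, 1.12, 0.97 and 0.70. UBX2, which recruits Cdc48 to the membrane of the endoplasmic reticulum, held the lowest level over 2 consecutive time points, with -0.74 at 5 h, -0.73 at 6 h and -0.94 at 8 h (adjusted p = 0.00961). DSK2, another shuttle, had the lowest single value of the list, -1.0 at 8 h (adjusted p = 0.0193). CDC48 itself, with 0.77 at 4 h, was below 0 h by the end, with -0.40 at 8 h (adjusted p = 0.0145).

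The remaining assembly genes had a list median below the subunit median at every time point, but not each gene was low. ECM29 lay above the subunit median throughout. IRC25 stood at 0.83 at 4 h and 0.33 at 8 h, where the subunit median was 1.15 and 0.30. Of 10 measured genes for assembly chaperones and associated factors 1 was induced, 0 were repressed and 2 were called by the trend test, against 21.8%, 16.4% and 48.5% of all genes, with medians of 0.14 at 3 h, 0.23 at 4 h and -0.08 at 8 h. ECM29, for a protein that binds assembled proteasomes, was the induced gene, at 0.90, 0.89, 1.11, 1.29, 1.11, 1.02 and 0.69 (adjusted p = 0.0772, limma). NAS6, a chaperone of the base, was the lowest at -1.17 at 5 h (adjusted p = 0.13). The 2 called genes were NAS2 (0.79 at 4 h, adjusted p = 0.0436), another base chaperone, and SPG5 (0.77 at 1 h and -0.31 at 8 h, adjusted p = 0.00606).

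Genes that act on RPN4 or its protein included a high member. MUB1, whose product helps the ligase Ubr2 mark Rpn4 for destruction, was the 1 induced gene of 7, where 21.8% of all genes were induced. It stood at 0.77, 1.34, 1.73, 1.70, 1.47, 1.33 and 0.91 from 1 h to 8 h (adjusted p = 0.0267, limma). UBR2 stood at 0.71 at 3 h (adjusted p = 0.0381). Both were about as high at 4 h (1.70 and 0.66), the peak hour of RPN4, as at 3 h. PDR3, a transcription factor that acts on RPN4, was the lowest of the list, at -0.41 at 8 h (adjusted p = 0.0288). The trend test called 4 of the 7, against 48.5% of all genes.

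Ubiquitin itself comes from UBI4, which encodes a chain of ubiquitin units, and from fusions to ribosomal proteins. UBI4 stood at 0.48, 0.33, 0.56, 0.53, 0.66, 0.74 and 0.47 from 1 h to 8 h and did not pass the test (adjusted p = 0.422, limma). The fusion genes were lower than at 0 h early on, with RPS31 at -1.96 at 1 h and -1.25 at 8 h (repressed by the rule of size). RPL40A had -1.28 and 0.18 at the same hours, and RPL40B had -0.90 and -0.45. RPL40A changed (adjusted p = 0.00859). RPL40A and RPL40B are almost the same in sequence, which makes the value of either alone uncertain.

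Some genes for conjugating enzymes and deubiquitinases had large steps between 4 h and 5 h, when the SD over all genes also went up, and others peaked with the subunits. Of 13 E1 and E2 genes 5 were induced (21.8% of all genes) and 3 repressed (16.4%), the trend test called 7 (48.5%), and 3 had their highest value at 4 h (14.6%). UBC7 and UBC13 were among the last, with 1.17 and 1.09 at 4 h. UBC11 was the highest, at 0.25, 0.21, 0.15, 1.02, 4.13, 4.59 and 5.17 from 1 h to 8 h (adjusted p = 0.0144, limma). UBC4, an E2 of bulk protein turnover, was the lowest, at -1.74 at 8 h (adjusted p = 0.0333), while UBC5, its close relative, had 1.56 at 1 h and climbed to 3.12 at 8 h (adjusted p = 0.00309). The 2 are similar in sequence, which can make the value of either alone uncertain. UBC1 and UBC6, also induced, had values of 2.11 and 1.47 at 5 h, against 0.19 and -0.04 at 4 h. UBA1, the ubiquitin-activating enzyme upstream of them all, fell to -1.32 at 5 h, against 0.53 at 1 h (adjusted p = 0.00606).

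**Figure D4:**
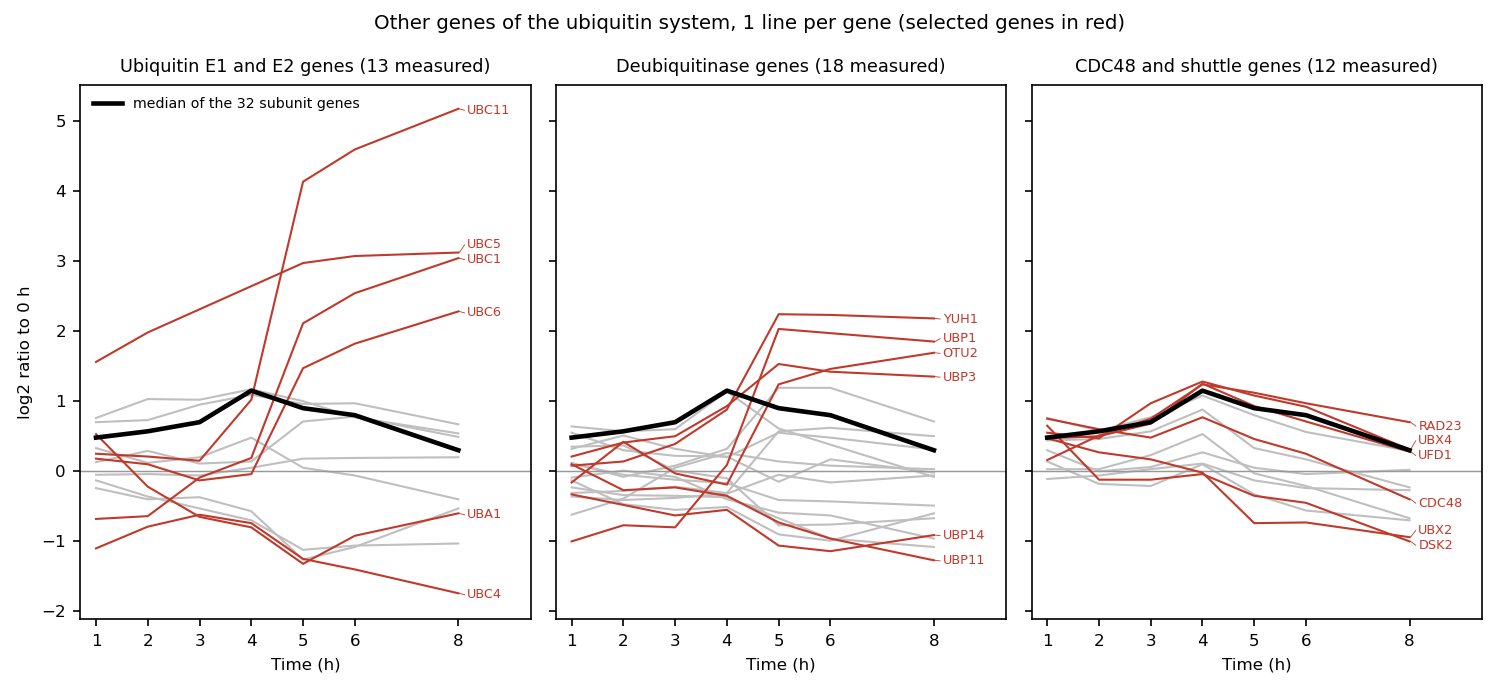
Log2 ratio to 0 h against time in hours for the measured genes of 3 lists of the ubiquitin system, 1 line per gene with selected genes in red, and the median of the 32 subunit genes in black. UBC11, UBC1, UBC6, YUH1 and UBP1 step up between 4 h and 5 h, where the subunit median goes down, whereas RAD23, UBX4 and UFD1 lie along the subunit median.

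Of 18 measured deubiquitinase genes other than UBP6 5 were induced, 1 was repressed and 11 were called by the trend test, against 21.8%, 16.4% and 48.5% of all genes. YUH1, for a ubiquitin hydrolase, was the highest, at 0.88 at 4 h, 2.24 at 5 h and 2.18 at 8 h (adjusted p = 0.0151, limma). UBP14, which takes free ubiquitin chains apart, was the repressed gene, at -1.14 at 6 h (adjusted p = 0.0513). Of the 18, 2 were highest at 4 h, near the 14.6% of all genes.

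Among 7 measured ligases of protein quality control 1 was induced, 0 were repressed and 3 were called, against 21.8%, 16.4% and 48.5% of all genes. SSM4, also known as DOA10, was the induced gene, at 1.48 at 4 h (adjusted p = 0.122, limma), and ASI3 of the inner nuclear membrane was the lowest, at -0.53 at 5 h (adjusted p = 0.00807). HRD1, a ligase of the endoplasmic reticulum, stood at 1.08 at 4 h (adjusted p = 0.0213), and 4 of the 7 were highest at 4 h, against 14.6% of all genes.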

How the data were processed

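The authors' deposited log2 ratios were used as given: per the labels and the series design, Cy5 time point over a Cy3 meiotic mix, divided by the ratio at 0 h. The sources used do not state how cultures were combined, or the background correction, normalization, filters and array. Whether columns were centred or rescaled is unknown. Of 6141 rows, 5666 had all 7 values and 475 none. No spot signals were used, so signal over background is unknown, and precision is limited by the number of arrays. An error at 0 h enters all 7 values of a gene.

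The trend test (limma 3.58.1, R 4.3.3) fitted a linear and a quadratic term, with 4 residual and 2.354 prior degrees of freedom, and was tested on simulated data. RPN10 was kept out of base and lid. Values within 0.005 counted as equal. Named genes were all members, the highest and lowest gene held over 2 time points in each other list, the smallest list in full, and the 5 genes closest to the subunit median. Other genes were named after their values were seen. Members and lists were chosen with earlier results of these data known. A planned comparison of promoter motifs was not run, for lack of sequence here.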

Additional observations from a re-analysis of the deposited data

How the results depend on the processing

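Group medians by hour, the hour of their peak (4 h for core, base and lid) and the absence of repressed members did not move beyond the spread among genes, or change, under any alternative run on them. The number of induced members was 31 with a 1.5-fold limit (34.4% of all genes), 24 with a single time point past the limit (26.7%) and 1 relative to 1 h (19.6%). The trend test called 0 members with a linear term alone and 0 with a step between 4 h and 5 h (5 and 5 at an unadjusted p under 0.05), forms that cannot follow an arch, and 10 with all columns at the same spread. The shares of all genes called in these 3 fits were 40.2%, 43.1% and 33.1%, each above the share of members. Leaving out a time point gave between 8 calls (without 8 h, where 46.6% of all genes were called) and 19 (without 1 h or 4 h, 41.7% and 42.0%). Under centring and common spread, members highest at 4 h numbered 31 and 32, against 13.8% and 12.5% of all genes. Those higher at 4 h than at 3 h numbered 36 and 34, against 48.8% and 51.0%. These checks were added after the values were seen. Genes outside the module within the subunits' median distance numbered 125 by level and 42 by shape, the second a measure added later.

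The fitted difference between the last and the first time point changed sign in some genes that stayed called. As 8 h minus 1 h, it turned in RPT2 with centred columns (adjusted p = 0.0156, limma) and in RPN7 at common spread (0.0364). It also turned in PRE2 without 2 h and in RPN5 without 3 h. Without 1 h the difference is 8 h minus 2 h, and it turned in PRE2, PRE8 and RPN7. Without 8 h it is 6 h minus 1 h, and it turned in PRE9, RPT1 and RPT2. The sign also turned in genes no longer called. Examples are PRE5, PRE6, RPT4, RPT6 and RPN12 without 8 h, and PRE1, PRE2 and PRE3 at common spread. Over all left-out time points the adjusted p ran between 0.0323 and 0.0635 for PRE2, 0.0345 and 0.0637 for PRE8, 0.0247 and 0.0416 for PRE9, 0.0186 and 0.0471 for RPT1, 0.0295 and 0.054 for RPT2, 0.0319 and 0.0589 for RPN5, and 0.0119 and 0.0277 for RPN7. The cause was not tested. No paired analysis was possible because each time point has 1 column. Without replicate columns or spot signals, small differences between members cannot be set against measurement error.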
